A study of Mus musculus with 8 samples.

Results

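The circadian clock genes examined here were Per1, Per2, Per3, Cry1, Cry2, Clock, Nr1d1, Nr1d2, Dbp and Bhlhe40, 10 genes chosen by name for their place in the clock. The array held 17 probes with these gene symbols among 25697 probes in all. The cells were LbetaT2, a single mouse line derived from pituitary gonadotropes, the cells that make gonadotropins in response to gonadotropin-releasing hormone (GnRH). They were kept 16 h without serum, then given GnRH or vehicle for 30 min, and RNA bound to the RNA-binding protein ELAVL1 (also named HuR) was recovered with an antibody and hybridised to an Illumina bead array. The GnRH group and the vehicle group had 4 arrays each. Both groups came from the same line and had the same starvation and the same pull-down. Whether the replicates were separate cultures is not stated in the labels, so the spread behind each p-value may be technical. RNA from before the pull-down was not analysed here, nor were pull-downs with a control antibody. Each value therefore reports recovery in the pull-down, in which abundance, binding to ELAVL1 and unspecific carry-over cannot be told apart. Nor can fewer cells and less RNA per cell, and the normalization removes differences in total yield.

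The clock is a transcriptional feedback loop. CLOCK pairs with BMAL1 (gene Arntl) and activates genes with an E-box, among them the Period and Cryptochrome genes, whose proteins then repress CLOCK and BMAL1. A second loop runs through REV-ERBα and REV-ERBβ, the nuclear receptors made from Nr1d1 and Nr1d2, which repress Arntl at elements that ROR receptors activate. Output runs through bZIP factors such as DBP, an activator at D-box elements, and NFIL3, a repressor at the same elements. Per1 is also known in other tissues as an early response gene driven through cyclic AMP response elements (CRE), and Per and Bhlhe40 transcripts are known to respond quickly to many stimuli. The comparison asked whether their recovery with ELAVL1 differed after 30 min of GnRH.

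Promoter sequences of 3 members and of Nfil3 are shown because they hold letters of the elements named above. RefSeq promoter windows on GRCm38.p6, from 250 bases before to 50 bases after a transcription start, were found for 8 of the 10 members, in 11 windows. Per2 and Bhlhe40 had no window and were not searched. Capitals mark the motifs searched on both strands: the E-box CACGTG, the short CRE TGACG, the D-box TTATGTAA and the ROR element core AGGTCA. Distances are from the transcription start of each window. Per1 lies on the plus strand at chr11:69098699-69098998, with a short CRE beginning 246 bases before the start, an E-box at 166 bases and an AGGTCA on the opposite strand at 137 bases. Per3 lies on the minus strand at chr4:151044616-151044915, with D-boxes at 205 and 158 bases before the start. Cry1 lies on the minus strand at chr10:85185005-85185304, with an E-box at 60 bases and a short CRE at 8 bases. Nfil3, not a member, lies on the minus strand at chr13:52980990-52981289, with a short CRE on the opposite strand at 59 bases and an AGGTCA on the opposite strand at 12 bases.
Per1: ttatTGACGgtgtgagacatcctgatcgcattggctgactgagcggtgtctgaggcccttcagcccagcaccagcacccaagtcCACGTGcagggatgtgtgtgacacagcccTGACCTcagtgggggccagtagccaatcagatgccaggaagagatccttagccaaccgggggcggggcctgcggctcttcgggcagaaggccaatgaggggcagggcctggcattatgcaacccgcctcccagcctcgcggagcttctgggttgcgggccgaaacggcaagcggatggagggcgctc
Per3: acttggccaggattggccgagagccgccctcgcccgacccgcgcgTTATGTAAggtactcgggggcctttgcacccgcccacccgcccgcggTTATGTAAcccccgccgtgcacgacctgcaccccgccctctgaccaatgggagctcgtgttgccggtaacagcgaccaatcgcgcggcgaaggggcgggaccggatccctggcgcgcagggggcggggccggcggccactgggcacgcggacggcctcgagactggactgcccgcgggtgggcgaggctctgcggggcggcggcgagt
Cry1: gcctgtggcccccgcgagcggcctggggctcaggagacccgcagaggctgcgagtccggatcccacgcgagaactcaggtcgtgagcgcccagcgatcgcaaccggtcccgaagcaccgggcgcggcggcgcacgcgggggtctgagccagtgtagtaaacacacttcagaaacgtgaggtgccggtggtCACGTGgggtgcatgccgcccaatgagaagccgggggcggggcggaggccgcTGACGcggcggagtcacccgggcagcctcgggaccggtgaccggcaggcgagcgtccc
Nfil3: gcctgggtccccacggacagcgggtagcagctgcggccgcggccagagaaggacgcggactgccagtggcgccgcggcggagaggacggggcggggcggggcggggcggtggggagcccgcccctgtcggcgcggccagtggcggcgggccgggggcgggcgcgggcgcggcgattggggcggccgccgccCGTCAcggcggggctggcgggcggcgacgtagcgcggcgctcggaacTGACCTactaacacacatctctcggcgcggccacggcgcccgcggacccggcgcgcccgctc

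These motifs are short, and a match is a description only. Of 32851 promoter windows of the same length, 7.15% held CACGTG, 20.8% TGACG, 0.938% TTATGTAA and 16.3% AGGTCA. The full palindrome TGACGTCA was in 1.79% of windows and in none of the 11 member windows. Cry2 held a short CRE on the opposite strand 209 bases before its start, and Nr1d2 held AGGTCA at 77 bases. A second Per1 window, at a transcription start farther downstream, held another short CRE 132 bases before that start. Of the Clock windows 1 held AGGTCA, and the Nr1d1 and Dbp windows held none of these letters.

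Across the arrays the median raw signal ran between 37.4 and 42.1 in the GnRH group and between 33.4 and 41.7 in the vehicle group. Between 10802 and 11663 probes were above background on an array, taken as a detection p below 0.05. The GnRH response was present on these arrays, since Fos and Egr1, immediate early transcription factors, changed by 4.30 and 3.80 on the log2 scale (limma adjusted p = 2.36e-05 and 2.57e-06). Of the gonadotrope markers, Gnrhr, Cga and Pitx1 were above background on all 8 arrays, Nr5a1 on 4 at most, and Lhb and Fshb on none. The 4 measured markers of other pituitary lineages, Gh, Prl, Pomc and Tshb, were above background on no array, as were Ptprc, Col1a1 and Col1a2, while the endothelial markers Pecam1 and Cdh5 were above background on all 8.

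Transcripts of 9 of the 10 clock genes were above background in the ELAVL1 pull-down, and none was called different after 30 min of GnRH. Of the 17 probes 14, from 9 genes, were above background on at least 4 of the 8 arrays and were tested. So were 44.0% of all probes on the array, and 13 of the 14 were above background on all 8. None of the 14 was called higher or lower (limma with Benjamini-Hochberg adjustment over 11318 tested probes), and none had an unadjusted p below 0.05. Over all tested probes 0.265% were called higher and 0% lower, and 2.91% had an unadjusted p below 0.05. None of the 14 had groups that did not overlap, against 2.15% of all tested probes. The lowest unadjusted p among the 14 was 0.226, and all had an adjusted p of 1.00 (limma).

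The sizes of the changes were also near those of the whole array. Changes are log2 differences of GnRH minus vehicle in normalized signal with an offset of 16, which understates changes of dim probes. They ran between -0.18 and 0.39 over the 14 probes, with a median of 0.08 beside -0.01 for all tested probes. Of the 14, 9 were positive and 5 negative, and over all tested probes 48.1% were positive. The median size without regard to sign was 0.11 for the clock probes and 0.12 for all tested probes. The 95% intervals of 13 of the 14 lay within a 2-fold change in either direction, as did 93.9% of intervals over all tested probes, and 7 of the 14 lay within 1.5-fold, against 6635 of all 11318.

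**Figure D1:**
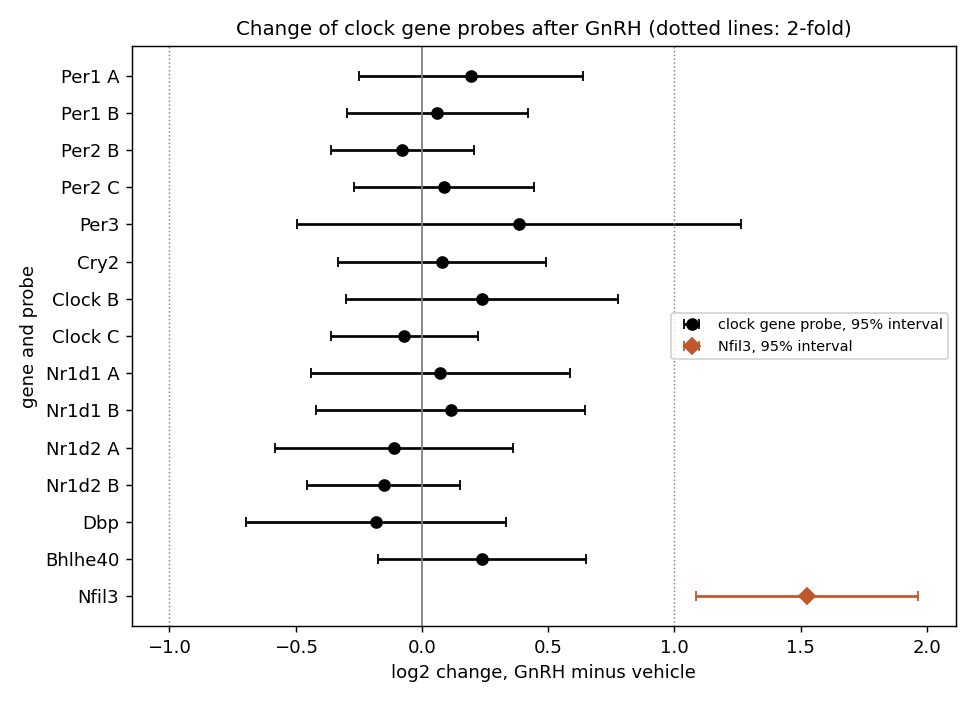
Log2 change of GnRH minus vehicle (horizontal axis) for each of the 14 tested clock gene probes and for Nfil3 (vertical axis), with 95% intervals from limma over 4 GnRH and 4 vehicle arrays. Every clock gene interval includes 0 and that of Per3 alone passes the 2-fold line (dotted), whereas the Nfil3 interval runs from 1.09 to 1.96.

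Clock, which encodes the activating partner of BMAL1, was measured by 3 probes, of which 2 were above background. Probe C (ILMN_2610973) had log2 signals of 11.34, 11.13, 11.36 and 11.21 in GnRH replicates 1 to 4, against 11.47, 11.28, 11.36 and 11.22 in vehicle replicates 1 to 4. The groups overlapped throughout, and the change was -0.07 ± 0.13 (SE, limma, 95% interval -0.36 to 0.22). This probe stood at or above the 98.1 percentile of all probes on every array, and its spread within groups (SD 0.11) was among the lowest 3.36% of tested probes. Probe B (ILMN_2600964) had 5.79, 5.55, 5.26 and 5.23 in the GnRH arrays and 5.92, 4.78, 5.18 and 5.00 in the vehicle arrays, a change of 0.24 ± 0.24, which was 0.47 without vehicle replicate 1 and 0.090 without vehicle replicate 2. Its highest values were those of replicate 1 in both groups. Probe A (ILMN_2589603) was above background on no array, with raw signals of 27.9 to 35.1 in GnRH and 28.5 to 32.3 in vehicle. Brightness depends on the probe, so these levels do not rank transcripts, and which transcript forms each Clock probe reads was not examined.

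The Period genes encode the repressors that accumulate and enter the nucleus with the cryptochromes. Per1 probe A (ILMN_2813484) had 7.69, 7.78, 7.54 and 8.21 in the GnRH arrays, against 7.28, 7.41, 7.93 and 7.82 in the vehicle arrays. Both the highest GnRH array and 2 of the vehicle arrays lay above the other values, and the groups overlapped. The change was 0.19 ± 0.20 (SE, limma, 95% interval -0.25 to 0.64). A rise of more than 1.55-fold lay outside the interval of this probe in the main fit, a limit that depends on the settings. The change was 0.059 without GnRH replicate 4, 0.30 ± 0.21 without vehicle replicate 3 and 0.29 ± 0.21 with median scaling in place of quantile normalization. Per1 probe B (ILMN_2813487) had 5.72, 5.82, 5.98 and 6.17 in GnRH and 5.68, 5.70, 5.92 and 6.15 in vehicle, a change of 0.06 ± 0.16. On both probes the 2 highest arrays included GnRH replicate 4.

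Probe B of Per2 was one of the steadiest member probes, and probe C was less so. Probe B (ILMN_2987862) had 9.47, 9.37, 9.42 and 9.42 in GnRH, against 9.39, 9.44, 9.47 and 9.69 in vehicle, a change of -0.08 ± 0.13. Its spread within groups (SD 0.10) was among the lowest 1.93% of tested probes. Probe C (ILMN_2987863) had 9.31, 9.42, 9.17 and 8.99 in GnRH, against 9.29, 9.17, 9.28 and 8.81 in vehicle, a change of 0.09 ± 0.16. The spread of probe C within groups (SD 0.21) was at the 30.4 percentile of tested probes. Vehicle replicate 4 was the highest array for probe B and the lowest for probe C. Probe A (ILMN_1258523) was above background on no array.

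Per3 was the least steady member. Its probe (ILMN_1257393) had 7.76, 7.26, 6.89 and 6.92 in GnRH, against 8.10, 6.18, 6.15 and 6.85 in vehicle. Vehicle replicate 1 was the highest of all 8 arrays, and the other vehicle arrays lay below every GnRH array. The change was 0.39 ± 0.40 (SE, limma, 95% interval -0.49 to 1.26), and the spread within groups (SD 0.71) was at the 97.4 percentile of tested probes. Without vehicle replicate 1 the change was 0.81 ± 0.25 (limma adjusted p = 0.412), and over the other arrays left out in turn it ran from 0.16 (without vehicle replicate 3) to 0.49. With weights estimated for each array it was 0.99 ± 0.29 (limma adjusted p = 0.132). None of these passed the threshold.

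**Figure D2:**
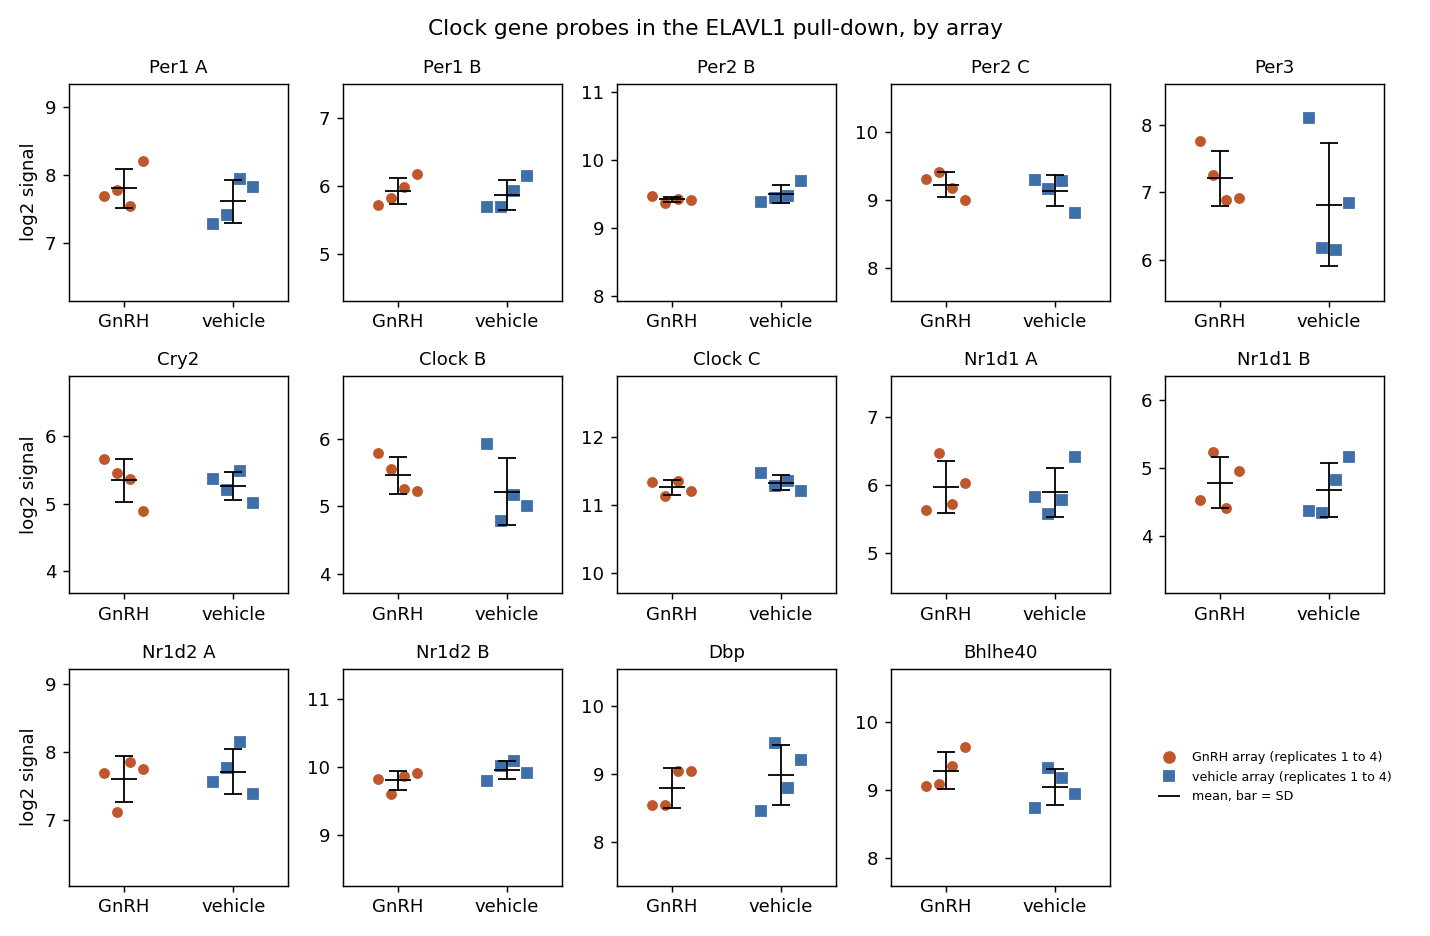
Log2 signal (vertical axis, of equal height in every panel) of the 14 tested clock gene probes in GnRH arrays (circles) and vehicle arrays (squares), replicates 1 to 4 from left to right, with mean and SD. The groups overlap in every panel, and vehicle replicate 1 stands high for Per3 at 8.10.

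The cryptochromes are the partners of the Period proteins in repression, and of their probes that of Cry2 alone was above background. Cry1 (ILMN_2618668) was not above background on any array, with raw signals of 25.6 to 33.3 in GnRH and 28.0 to 31.5 in vehicle, so no change is given for it. Cry2 (ILMN_2665681) had log2 signals of 5.65, 5.45, 5.37 and 4.90 in GnRH, against 5.36, 5.20, 5.48 and 5.01 in vehicle. The GnRH group held both the highest and the lowest array, and the change was 0.08 ± 0.19 (SE, limma). Bhlhe40, which encodes DEC1, a repressor that competes at E-boxes, had 9.06, 9.09, 9.37 and 9.64 in GnRH, against 8.74, 9.33, 9.18 and 8.94 in vehicle (ILMN_1249378). GnRH replicate 4 was the highest and vehicle replicate 1 the lowest array. Its change of 0.24 ± 0.19 (95% interval -0.17 to 0.65) had the lowest unadjusted p of the members and did not pass (limma adjusted p = 1.00). It was 0.12 without GnRH replicate 4, 0.14 without vehicle replicate 1 and 0.035 with array weights.

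The 5 genes whose tested probe followed Bhlhe40 most closely over the 8 arrays were Atg101, Plekhg2, Akr1a1, Ncaph2 and Tubgcp2. Pearson's r was between 0.960 and 0.976 and Spearman's rho between 0.929 and 0.976. They were picked as the highest of 11318 probes measured on the same arrays, so these values are a description with no test. Their own changes were between 0.13 and 0.41, and none passed (limma adjusted p = 1.00 for each).

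No REV-ERB probe was called different. Nr1d1 probe A (ILMN_1229091) had 5.63, 6.48, 5.72 and 6.03 in GnRH, against 5.82, 5.57, 5.78 and 6.41 in vehicle, a change of 0.07 ± 0.23 (SE, limma). Nr1d1 probe B (ILMN_2749669) had 4.53, 5.23, 4.42 and 4.96 in GnRH, against 4.36, 4.34, 4.83 and 5.16 in vehicle, a change of 0.11 ± 0.24, and was above background on 4 arrays. GnRH replicate 2 and vehicle replicate 4 were the highest arrays on both probes. Nr1d2 probe A (ILMN_2602387) had 7.69, 7.11, 7.85 and 7.75 in GnRH, against 7.55, 7.76, 8.14 and 7.39 in vehicle, a change of -0.11 ± 0.21. Nr1d2 probe B (ILMN_2798993) had 9.83, 9.61, 9.86 and 9.91 in GnRH, against 9.79, 10.01, 10.09 and 9.92 in vehicle, a change of -0.15 ± 0.14 (95% interval -0.46 to 0.15). GnRH replicate 2 was the lowest of the 8 arrays on both Nr1d2 probes.

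Dbp, the D-box activator under direct E-box control, had the most negative change of the members on all 8 arrays, a rank that rested on single arrays. Its probe (ILMN_2616226) had 8.55, 8.54, 9.05 and 9.05 in GnRH, against 8.46, 9.46, 8.80 and 9.22 in vehicle. The vehicle group held both the highest and the lowest array. The change was -0.18 ± 0.23 (SE, limma, 95% interval -0.70 to 0.33). It was -0.03 without vehicle replicate 2, where Nr1d2 probe B stood lower at -0.13, and -0.36 without vehicle replicate 1. With array weights Dbp stood at -0.29 and Nr1d2 probe A at -0.37.

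Where 2 probes of a gene were tested, the probes of a gene were compared with each other over the 8 arrays, a comparison added after the values were seen. Over 5 such genes, the probes of Nr1d1 agreed most closely, with Pearson's r = 0.904 (exact permutation p = 0.00231, adjusted 0.0115) and Spearman's rho = 0.833 (exact p = 0.0154, adjusted 0.0544). Without the 2 arrays farthest from the median of probe A, r was 0.721. For every gene these arrays were picked on its first tested probe. The Nr1d2 probes had r = 0.823 (exact p = 0.0167, adjusted 0.0419) and rho = 0.667 (exact p = 0.0831, adjusted 0.138). Without the 2 farthest arrays r fell to 0.146. Leaving out extreme arrays narrows the range of values, so this fall cannot show what the relation rested on. The Per1 probes had r = 0.753 (exact p = 0.0324, adjusted 0.0541) and rho = 0.810 (exact p = 0.0218, adjusted 0.0544), with r = 0.469 without 2 arrays. The Clock probes B and C had r = 0.408 (exact p = 0.318, adjusted 0.318) and rho = 0.286 (exact p = 0.501, adjusted 0.501), with r = -0.347 without 2 arrays. The Per2 probes had r = -0.748 (exact p = 0.0486, adjusted 0.0608) and rho = -0.455 (exact p = 0.258, adjusted 0.323). Neither passed after adjustment, and r was 0.338 without GnRH replicate 2 and vehicle replicate 4. All p-values are two-sided and adjusted over the 5 genes, separately for r and rho. The permutations treated the 8 arrays as exchangeable, although many probes shared array patterns, as given below. No rate for pairs of unrelated probes was computed. These p-values therefore cannot tell agreement between probes of a gene from a shared array pattern.

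For some member probes 1 array of each group stood high together. The replicate 1 arrays of both groups were the 2 highest for Per3 and Clock probe B, 2 of 14 member probes. The same held for 9.82% of all tested probes and 5 of 42 probes of other clock genes. GnRH replicate 2 and vehicle replicate 4 were the 2 highest for both Nr1d1 probes, again 2 of 14. The same held for 6.12% of all tested probes and 3 of 42 probes of other clock genes. These pairs of arrays were picked from the member values, so the shares are a description. Over all tested probes the deviations of GnRH replicate 1 and vehicle replicate 1 from their group means correlated at r = 0.723, across probes that are not independent replicates. These arrays had the highest median raw signals of their groups, 42.1 and 41.7, and the part of signal in the Per3 values was not tested.

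**Figure D3:**
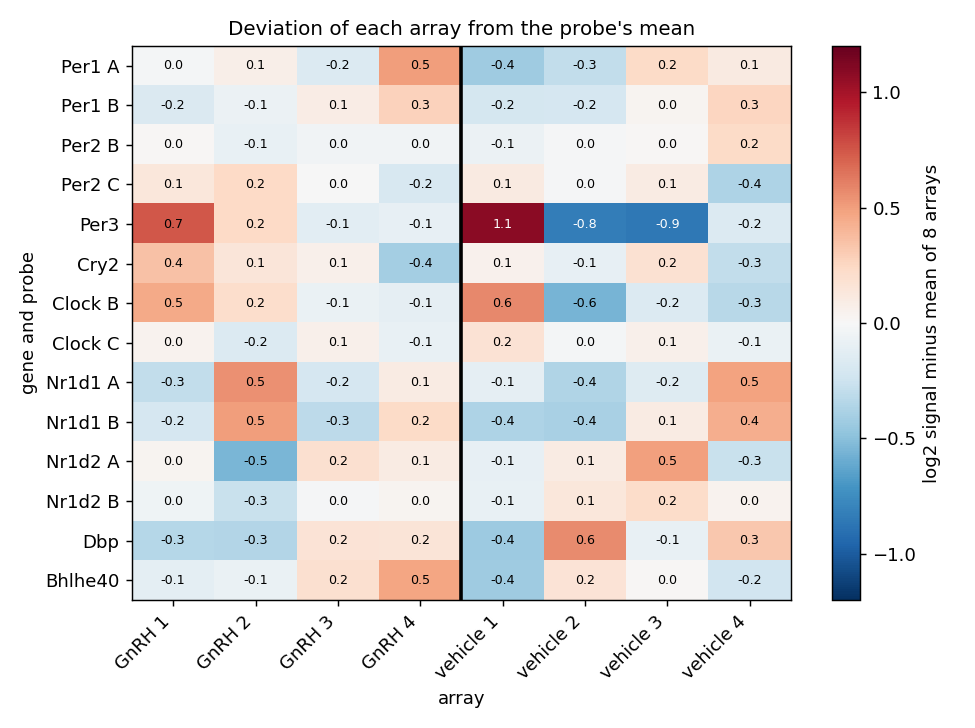
Deviation of the log2 signal on each array (columns, GnRH left of the black line and vehicle right) from the mean of its probe over 8 arrays (rows, the 14 tested clock gene probes), in colour and digits. Per3 and Clock B are highest on replicate 1 of both groups, and both Nr1d1 probes on GnRH replicate 2 and vehicle replicate 4.

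Of the other clock genes, Nfil3 alone was called higher after GnRH and none was called lower. Over all tested probes 0.265% were called higher and 0% lower. The list was chosen with earlier results of these data known. It held 40 genes, of which 33 had a probe and 28 were tested, with 42 probes. Its median change was 0.03, beside -0.01 for all tested probes, and its 41 probes without Nfil3 ran between -0.28 and 0.32, with none at an unadjusted p below 0.05. Nfil3 (ILMN_2595732) had 6.33, 6.72, 6.79 and 6.78 in GnRH, against 4.66, 5.52, 5.12 and 5.23 in vehicle. All GnRH arrays lay above all vehicle arrays, and 2.15% of all tested probes had groups that did not overlap. The Nfil3 change was 1.53 ± 0.20 (SE, limma adjusted p = 0.00860). That call ended without vehicle replicate 3 (1.52 ± 0.23, limma adjusted p = 0.0510). It also ended where dim probes were tested too (1.53 ± 0.19, limma adjusted p = 0.0932). The probe was above background on 3 of 4 vehicle arrays. The size depended on the scale, and was 0.96 ± 0.12 with an offset of 50 (limma adjusted p = 0.0160) and 0.95 ± 0.11 with the authors' processed values (limma adjusted p = 0.00967).

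NFIL3 represses where DBP, TEF and HLF activate, and the genes of those activators were not called. Tef probe A stood at -0.18 ± 0.21 and Hlf, above background on 4 arrays, at -0.01 ± 0.16 (log2, SE, limma), beside the Dbp value above.

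By role, the 3 tested activators and partners gave -0.19 ± 0.14 for Arntl (BMAL1), 0.21 ± 0.42 for Npas2, a CLOCK paralogue, and 0.12 ± 0.22 for Ep300, a histone acetyltransferase (log2 change ± SE, limma). Arntl had 6.96, 6.67, 7.03 and 7.08 in GnRH, against 6.97, 7.19, 7.15 and 7.18 in vehicle. Npas2 had its highest values on replicate 1 of both groups, 6.90 in GnRH and 7.61 in vehicle. The 4 probes of ROR receptors and REV-ERB co-repressors ran between -0.08 and 0.23, and the 12 probes of repressors and Period or cryptochrome partners between -0.28 and 0.32. The 11 kinase probes, which include those of the casein kinases that phosphorylate Period proteins, ran between -0.11 and 0.20. The 9 probes of ubiquitin and NAD enzymes ran between -0.20 and 0.26, and among them Usp2 probe B, from a clock-controlled deubiquitinase, had the lowest unadjusted p of the negative changes (-0.20 ± 0.14, unadjusted p = 0.168, limma). The other tested Usp2 probes stood at 0.08 ± 0.21 and 0.22 ± 0.31. None of these groups held a called probe.

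**Figure D4:**
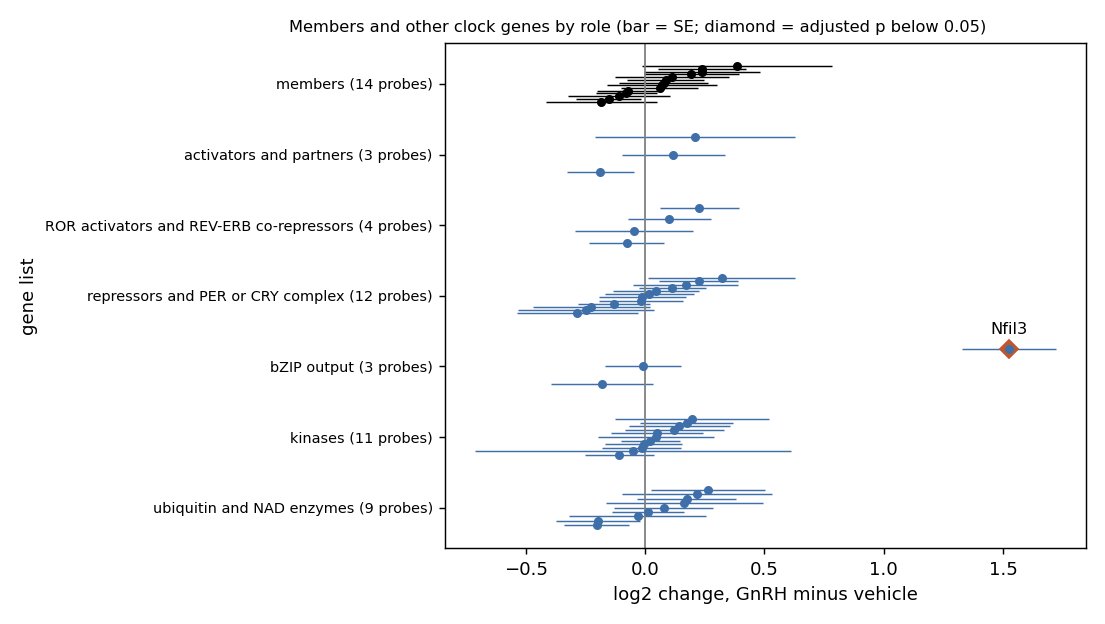
Log2 change of GnRH minus vehicle (horizontal axis, bars SE) of the tested probes of the members (top) and of other clock genes grouped by role (below). All stand between -0.28 and 0.39 except Nfil3 (diamond), at 1.53.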

How the data were processed

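The authors deposited average bead signal intensity for 25697 probes on 8 arrays, on a linear scale and not normalized between arrays as far as the values show, with a detection p-value beside each signal, per the file headers. They also deposited processed intensity values with nearly equal quartiles on all arrays, used here as an alternative. How they normalized them, and the scanner software, was not stated in the labels.

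Gene symbols came from the platform annotation, and all 17 member probes matched the RefSeq gene table. The neqc function (limma 3.58.1, R 4.3.3) estimated background by normexp using detection p-values, added an offset of 16, and gave quantile-normalized log2 values. Quantile normalization removes differences in total yield. A probe was tested if 4 or more arrays gave it a detection p below 0.05 (11318, 44.0%), GnRH against vehicle, with lmFit and eBayes on all 8 arrays, without a block and with Benjamini-Hochberg adjustment at 0.05. The fit was also run on simulated data with noise independent between arrays, and its outcome is not reported here. Exact permutation tests used scipy 1.17.1. The number of arrays limits the precision.

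The members and lists were chosen with earlier results of these data known. All member probes are named, and of the other clock genes those called and the lowest p in each direction, besides genes described by role after their values were seen. Of the list of other clock genes 7 had no probe under their symbols and 5 were not above background on enough arrays. Alternatives covered offset, background, normalization, filter, variance model, weights, block, sample number and each replicate left out.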

Additional observations from a re-analysis of the deposited data

How the results depend on the processing

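Under 18 alternatives no clock member probe passed the threshold (limma), and the lowest adjusted p was 0.132, for Per3 with array weights. Of 249 member values 237 kept their sign. The settings of filter, variance model, block and sample number left each member's change as in the main fit. Its sign could not reverse under those settings. The reversals were of changes between -0.11 and 0.11. With median scaling, which moved the median of all tested probes to 0.07, Clock probe C stood at 0.052 and Per2 probe B at 0.020, and with array weights Per1 probe B stood at -0.0048. Over the arrays left out in turn, Cry2 ran from -0.025 to 0.23, Nr1d1 probe A from -0.098 to 0.25, Nr1d1 probe B from -0.037 to 0.29, Nr1d2 probe A from -0.22 to 0.053, Per1 probe B from -0.022 to 0.16 and Per2 probe C from -0.021 to 0.17.

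The count of all higher probes, 30, became 14 with no filter on dim probes, 18 with detection at p below 0.01 on all 8 arrays and 46 with array weights, which also gave 4 lower and thus 50 in all. Without 1 replicate it ran from 17 (without vehicle replicate 3) to 27, and lower probes from 0 to 1. The count of other clock genes called, 1, became 0 with no filter and with detection on all 8 arrays, where Nfil3 was not among the tested probes in the second case, and ran from 0 to 1 without 1 replicate. With the replicate number as a block 43 probes were called and no member (replicate block). Same-numbered arrays had deviations that correlated at 0.723, -0.227, 0.256 and 0.649 for numbers 1 to 4. For arrays of different numbers the correlations ran between -0.582 and 0.577. Same-numbered arrays also had adjacent sample numbers, while the labels state no pairing. Whether the numbers pair the arrays is therefore not known. With sample number as a covariate 34 probes were called and no member.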
